A study of Homo sapiens with 6 samples.

Results

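Plasminogen activators and serpins were followed as 8 genes: the activators PLAT and PLAU, the receptor PLAUR, and the serpins SERPINE2, SERPINB2, SERPINB5, SERPINB6 and SERPINB8. They were chosen by gene symbol, and all 8 were found among the 19960 genes of the deposited table. The cells were MKN28, an established human gastric cancer cell line. Control cells stably carried a plasmid for a scrambled short hairpin RNA (shSCR), and the others stably carried a plasmid for a hairpin against LTBP1 (shLTBP1), and each was sequenced as 3 RNA-seq libraries. The product of LTBP1 tethers latent TGF-beta to the matrix, and the design addresses which RNAs differ once LTBP1 is depleted. The labels do not say whether each stable line was a clone or a pool, or whether the 3 libraries came from separate cultures, so p-values reflect library-to-library spread only, and that may be technical.

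Plasminogen is a zymogen that tissue-type activator (PLAT, tPA) and urokinase (PLAU, uPA) cleave to plasmin, a broad serine protease that degrades fibrin and matrix proteins. PLAUR, the urokinase receptor, holds urokinase at the cell surface. Serpins are inhibitors that trap a protease in a covalent complex, although some, such as SERPINB5 (maspin), do not act as protease inhibitors in this way. The clade E serpins are secreted, while most clade B serpins act largely inside cells.

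Deposited values were read counts normalized by the authors, called normalized counts here, and they summed to between 30479879 and 30941103 per library. LTBP1 itself was at 977, 964 and 1011 in shSCR and at 59.0, 66.7 and 49.0 in shLTBP1. Epithelial identity was checked on EPCAM, CDH1, KRT8, KRT18 and KRT19, whose summed level was 307451 to 328371 in shSCR and 267214 to 291416 in shLTBP1. Of these, KRT19 rose, while CDH1, KRT18 and EPCAM fell. KRT19 did not rise with the median of its neighbours subtracted, the median of 25 tested genes on each side. EPCAM is on chromosome 2, as is LTBP1, and genes there were lower as a whole. On the log2 scale LTBP1 fell by 4.07, and its change was -3.48 with the median of its neighbours subtracted. The defining blood marker PTPRC and the endothelial marker KDR were at 1.26 or less in every library. The summed level of 7 blood markers was 364 to 1328 in shSCR and 636 to 759 in shLTBP1. Of these, 4 were tested, and CD68 was the only member that rose (366 ± 22.5 to 669 ± 56.7, SD, n = 3 each). One library stood apart in globin genes: in shSCR replicate 3, HBA1 was at 803 and HBB at 132, while the other 5 libraries held 3.36 to 11.99 of HBA1 and 0 of HBB. The 5 endothelial markers summed to 35.6 to 52.1 in shSCR and 23.9 to 33.0 in shLTBP1, with none called. The 6 fibroblast markers summed to 1095 to 1336 and 706 to 929, THY1 being at 0 throughout. The 2 tested were COL1A1, which fell (1213 ± 123 to 805 ± 121), and LUM, listed at 0 in shSCR and at 36.6 to 52.0 in shLTBP1. The part of these markers in the results below was not tested.

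Upstream sequences are shown for 3 serpin genes of a single cluster on chromosome 18, because their RNA levels went different ways in the same cells. They come from the RefSeq promoter table on GRCh38.p14, on the plus strand, 5′ to 3′, and are limited to bases that no annotated exon covers. Capitals mark matches on either strand to the AP-1 motif TGANTCA, the TATA box TATAAA or the SMAD-binding CAGA box CAGACA; the other motifs searched were the cyclic AMP element TGACGTCA and the GC box GGGCGG.
SERPINB5, chr18:63476708-63476760: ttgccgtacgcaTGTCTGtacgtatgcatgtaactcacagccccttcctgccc
SERPINB13, chr18:63587128-63587299: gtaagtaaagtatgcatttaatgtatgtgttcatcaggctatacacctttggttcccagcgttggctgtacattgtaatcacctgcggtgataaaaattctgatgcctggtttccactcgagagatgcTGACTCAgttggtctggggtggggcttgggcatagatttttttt
SERPINB2, chr18:63887455-63887699: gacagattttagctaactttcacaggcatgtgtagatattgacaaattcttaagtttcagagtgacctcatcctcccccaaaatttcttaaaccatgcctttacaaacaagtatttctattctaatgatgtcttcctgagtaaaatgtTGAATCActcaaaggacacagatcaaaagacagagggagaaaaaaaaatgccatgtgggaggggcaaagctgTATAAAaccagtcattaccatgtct

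The AP-1 match began 87 bases before the RefSeq start of SERPINB13 and 102 bases before that of SERPINB2. In the GENCODE annotation these genes start earlier, at 63586989 and 63871692, so both stretches lie inside their GENCODE spans. Across 27305 promoters, 6.6% held an AP-1 match in the 250 bases before the start, and 4.76% and 6.54% held one in the same stretches as the SERPINB13 and SERPINB2 windows. SERPINB2 also had a TATA box match 30 bases before its start, as did 11.0% of promoters in that stretch. The CAGA box match of SERPINB5 lay 238 bases before its RefSeq start, in a 53-base stretch in which 3.13% of promoters hold one. These are matches of letters, and binding was not measured.

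PLAT fell to 21.2% of its control level, and it was the member with the greatest change. PLAT encodes tissue-type plasminogen activator and lies on the minus strand of chromosome 8 (42175233 to 42207724, hg38; 14 exons in its principal transcript). The control libraries held 998, 1076 and 1011 normalized counts of PLAT, and the shLTBP1 libraries 225, 212 and 219. Every shLTBP1 value lay far below every shSCR value, and the 3 libraries of each group were close together. The means were 1028.5 ± 41.6 and 218 ± 6.63 (SD, n = 3 each). Fold changes are differences in log2(value + 1), shLTBP1 minus shSCR; for PLAT this was -2.23, standard error 0.07 (limma adjusted p = 2.30e-08, adjusted over 12789 tested genes). Ordered by log2 fold change, it was the 59th lowest of the 12789 tested genes. Its log2 fold change lay between -2.25 and -2.19 under all 16 alternative settings.

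PLAU, the urokinase gene on chromosome 10 (73909177 to 73917497, plus strand), was barely detected. Normalized counts of PLAU were 4.64, 5.87 and 5.42 in shSCR and 1.34, 3.50 and 0.734 in shLTBP1. The groups did not overlap, but PLAU was below the minimum mean of 10 and was not tested. With no filter on low values, its log2 fold change was -1.26 (standard error 0.43; limma adjusted p = 0.0444). One exon-sharing neighbour, C10orf55, runs on the opposite strand, and the strand setting of the counting is not given in the sources used here.

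PLAUR, on chromosome 19 (43646095 to 43670547, minus strand), did not pass the test. The 6 libraries gave normalized counts of 1217, 1309 and 1308 in shSCR and 1294, 1353 and 1326 in shLTBP1, and the groups overlapped. The means were 1278 ± 53.0 and 1325 ± 29.5 (SD, n = 3 each). The log2 fold change was 0.05 with a 95% confidence interval of -0.08 to 0.18 (limma adjusted p = 0.472). The receptor was therefore well expressed in both groups while its ligand PLAU was near the limit of detection.

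**Figure D1:**
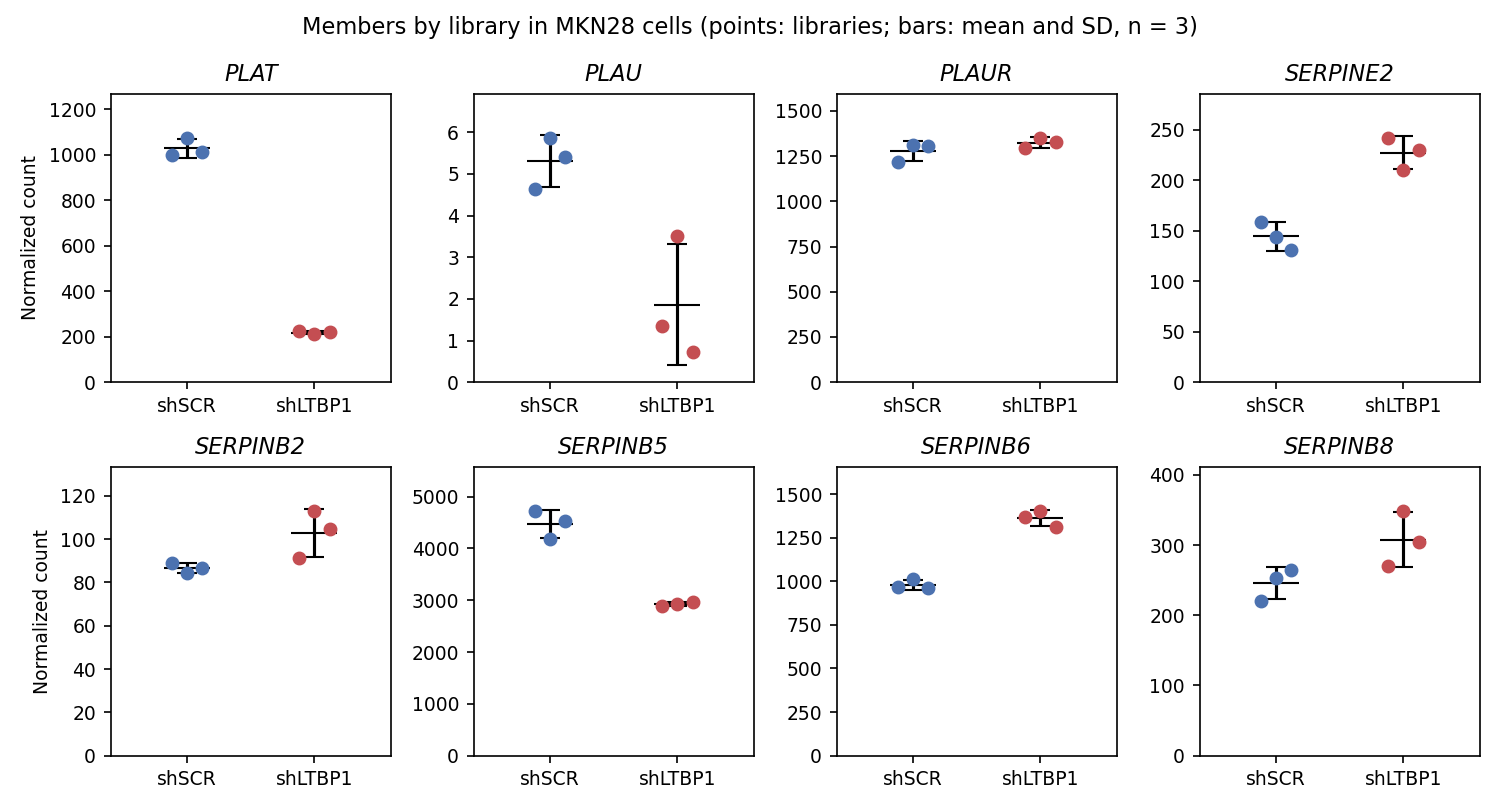
Normalized counts of the 8 members (y axis, from 0, each panel with its own scale) in the 3 shSCR and 3 shLTBP1 libraries; points are libraries and bars the mean and SD. PLAT drops from about 1028.5 to 218, SERPINE2, SERPINB6 and SERPINB8 are higher in shLTBP1, and PLAUR overlaps between the groups.

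Of the member inhibitors of the activators, SERPINE2 rose and SERPINB2 did not pass. SERPINE2, or protease nexin 1, is a secreted inhibitor of thrombin, urokinase and tissue-type activator, and lies on the minus strand of chromosome 2 (223975112 to 224039319). SERPINE2 had normalized counts of 158, 144 and 131 in shSCR and 242, 210.1 and 230.01 in shLTBP1. All 3 shLTBP1 values were above all 3 shSCR values. The means rose from 144 ± 13.9 to 228 ± 16.3 (SD, n = 3 each), a log2 fold change of 0.65 (standard error 0.12; limma adjusted p = 0.0012). The tested genes of chromosome 2 had a median log2 fold change of -0.56 over 852 genes. After the median of the nearby tested genes was taken off in each library, SERPINE2 had a log2 fold change of 1.09 (standard error 0.12; limma adjusted p = 5.58e-05).

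SERPINB2, or plasminogen activator inhibitor 2, inhibits urokinase and lies on the plus strand of chromosome 18 (63871692 to 63903890). Library values of SERPINB2 were 89.0, 84.3 and 86.5 normalized counts in shSCR and 91.1, 113 and 104.8 in shLTBP1. The groups did not overlap, but shLTBP1 replicate 1 was only just above the highest control. The log2 fold change was 0.24 with a 95% confidence interval of -0.08 to 0.57 (limma adjusted p = 0.185). SERPINB2 has an exon overlap on the same strand with SERPINB10, which was at 1.11 or less in every library.

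SERPINI1, neuroserpin, which inhibits tissue-type activator, was low, with means of 13.9 ± 2.13 and 9.74 ± 1.79, and did not pass (limma adjusted p = 0.302).

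Clade B members other than SERPINB2 changed in both directions. SERPINB5, known as maspin, is an epithelial serpin linked to adhesion and tumour suppression and lies on chromosome 18 (63476761 to 63505085, plus strand). Maspin RNA stood at 4721, 4185 and 4520.2 normalized counts in shSCR and 2896, 2922 and 2969 in shLTBP1, with no overlap. The means fell from 4475 ± 271 to 2929 ± 37.1 (SD, n = 3 each), to 65.5% of the control level. The log2 fold change was -0.61 (standard error 0.05; limma adjusted p = 9.62e-06). The shSCR libraries spread more widely than the shLTBP1 libraries, and the log2 fold change stayed between -0.66 and -0.57 under all 16 alternative settings.

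SERPINB6, an intracellular inhibitor of cathepsin G and of trypsin-like proteases, lies on the minus strand of chromosome 6 (2948159 to 2972165). Its normalized count was 968, 1014 and 959 in shSCR and 1370.1, 1403 and 1314 in shLTBP1. Every shLTBP1 library exceeded every shSCR library, with means of 980.1 ± 29.7 and 1362 ± 45.0 (SD, n = 3 each). The log2 fold change was 0.47 (standard error 0.06; limma adjusted p = 9.18e-05), and it lay between 0.45 and 0.50 under the 16 alternative settings.

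SERPINB8, an inhibitor of furin, lies at the far end of the chromosome 18 cluster (63969925 to 64019779, plus strand). Its normalized count was 219.9, 254 and 264 in shSCR and 271, 348 and 305 in shLTBP1. The lowest shLTBP1 value was only slightly above the highest shSCR value. The means rose from 246 ± 23.2 to 308 ± 39.0 (SD, n = 3 each), a log2 difference of 0.32 (standard error 0.12; limma adjusted p = 0.047). The call was lost under 8 of 16 alternatives. Over all 16, the limma adjusted p of SERPINB8 ran from 0.0256 to 0.159. Leaving out a single library ended it for every library but shLTBP1 replicate 1. For SERPINB8 the limma adjusted p was 0.159, 0.076 and 0.0538 without shSCR 1, 2 and 3, and 0.149 and 0.0869 without shLTBP1 2 and 3. SERPINB8 has exon overlaps with HMSD on the same strand, listed at 0 in all 6 libraries, and with an antisense gene on the other.

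Of the 8 members, 3 rose (SERPINE2, SERPINB6 and SERPINB8), 2 fell (PLAT and SERPINB5), 2 did not pass (PLAUR and SERPINB2), and PLAU was below the filter. Across all tested genes 53.1% were called, 26.3% higher and 26.8% lower, so having some called members is common in these data. The median log2 fold change of the 7 tested members was 0.24, beside 0.00 over all tested genes. Values of the groups did not overlap for 6 of the 7 tested members, beside 60.8% of tested genes. An exact two-sided permutation test of 3 against 3 libraries gave p = 0.1 for PLAT, PLAU, SERPINE2, SERPINB2, SERPINB5, SERPINB6 and SERPINB8, the smallest this design allows, and p = 0.3 for PLAUR. In such bulk samples, fewer cells expressing a gene and less RNA per cell cannot be told apart.

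The order of the members was set per transcript length. In shSCR, normalized counts per kb of the principal transcript were highest for SERPINB5 (1608 ± 97.4), PLAUR (826 ± 34.2) and PLAT (380.1 ± 15.4). SERPINB6 followed at 174 ± 5.28, then SERPINB8 at 70.7 ± 6.66, SERPINE2 at 65.8 ± 6.35, SERPINB2 at 40.2 ± 1.08 and PLAU at 2.29 ± 0.27 (SD, n = 3). Only SERPINB8 and SERPINE2 overlapped in their library values among these neighbours. In shLTBP1, SERPINB5 (1053 ± 13.3) and PLAUR (856 ± 19.1) stayed at the head, but PLAT (80.7 ± 2.45 per kb) had dropped below SERPINB6 (242 ± 8.02), SERPINE2 (104 ± 7.43) and SERPINB8 (88.6 ± 11.2). There, SERPINB8 overlapped with both SERPINE2 and PLAT, so its place relative to each was not set. SERPINE2 (95.7 to 110.5) and PLAT (78.2 to 83.0) did not overlap with each other. The transcript used for SERPINB6 had 5620 bases, beside 2155, 2783 and 3477 for SERPINB2, SERPINB5 and SERPINB8. A shorter one would raise SERPINB6 per kb, so its place relative to PLAT in shSCR depends on the transcript chosen.

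**Figure D2:**
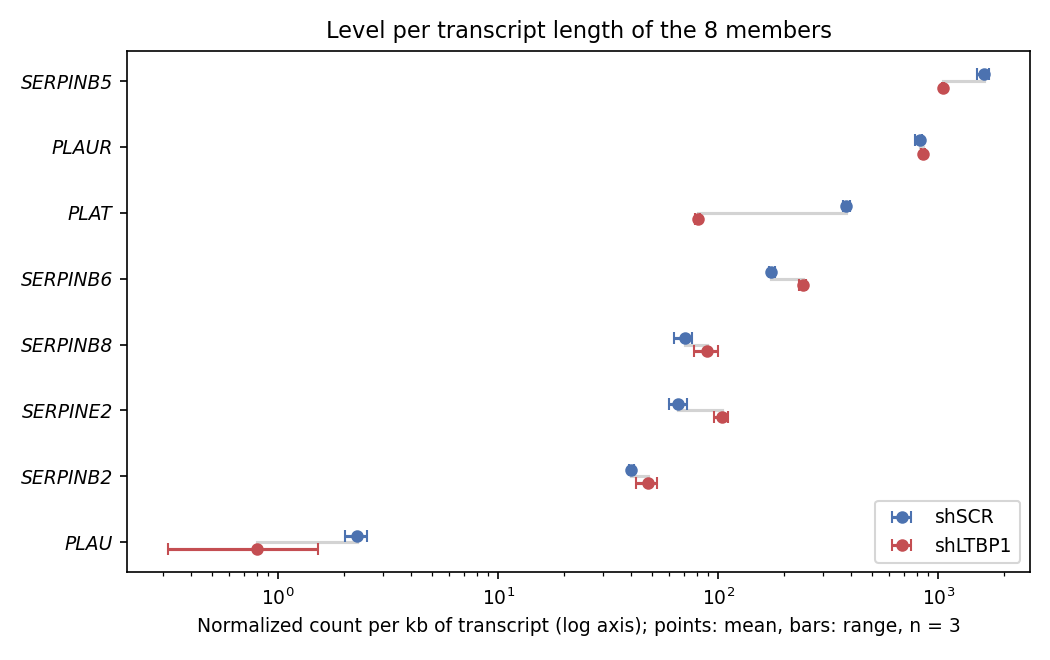
Normalized counts per kb of transcript (x axis, log scale) of the 8 members; points are means of the 3 libraries of a group and bars run from the lowest to the highest library. PLAT moves from 380.1 in shSCR to 80.7 in shLTBP1, where its mean is below those of SERPINB6, SERPINB8 and SERPINE2, while PLAUR is at 826 and 856. In shLTBP1 the ranges of PLAT and SERPINB8 overlap.

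Within single libraries, PLAT was 5.11, 6.06 and 6.28 times SERPINE2 per kb in shSCR and 0.752, 0.817 and 0.772 times in shLTBP1. In the control cells the activator thus exceeded this inhibitor in RNA per kb, and in the shLTBP1 cells it did not. These are ratios of RNA levels, and no activity was measured.

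The plasminogen system, counted with the members that belong to it, was mostly lower where it passed. Of 18 genes listed, 10 were tested: 1 rose (SERPINE2), 5 fell (PLAT among them) and 4 did not pass (PLAUR and SERPINB2 among them). The share called was 60%, beside 53.1% of all tested genes. The median log2 fold change of these 10 genes, members included, was -0.21. S100A10 and ANXA2, which form the annexin A2 complex that binds plasminogen and tissue-type activator, fell with log2 fold changes of -0.56 and -0.20. ENO1, a glycolytic enzyme that also binds plasminogen at the cell surface, fell by 0.21 on the log2 scale (limma adjusted p = 0.00136). With the median of neighbouring genes subtracted, ANXA2 lost its call (log2 fold change -0.06, limma adjusted p = 0.291) and S100A10 had a log2 fold change of -0.97. PLGRKT, a membrane receptor for plasminogen, did not pass, at 209 ± 14.9 and 217 ± 10.2. Plasminogen itself, PLG, was listed at 0 in 5 libraries and at 0.916 in shLTBP1 replicate 3. SERPINF2, the plasmin inhibitor antiplasmin, SERPINA5, VTN, HRG, CPB2 and A2M were also below the filter.

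**Figure D3:**
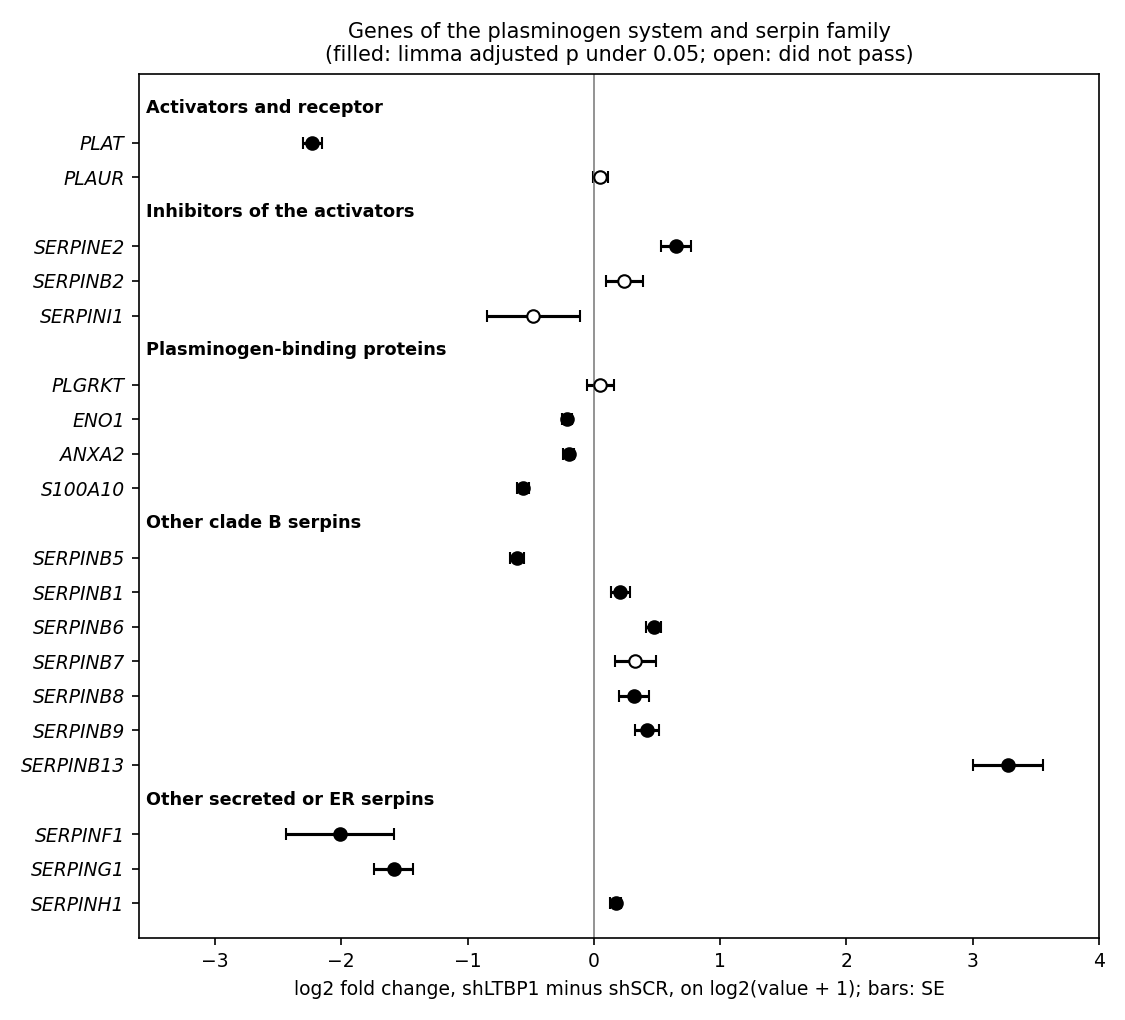
Log2 fold change, shLTBP1 minus shSCR (x axis), with its standard error for 19 tested genes of the plasminogen system and the serpin family (rows); filled points passed a limma adjusted p of 0.05 and open points did not. PLAT lies at -2.23 and SERPINB13 at 3.28, with SERPINE2 at 0.65.

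Among all 13 clade B serpins, 8 were tested: 5 rose, 1 fell (SERPINB5) and 2 did not pass, so that 75% were called beside 53.1% of all tested genes. The median was 0.32. Only 3 rose with quantile normalization, and only 3 when any single library other than shLTBP1 replicate 1 was left out. SERPINB13, or headpin, a serpin of stratified epithelium, changed most. Its normalized count was 5.38, 5.89 and 6.17 in shSCR and 61.6, 61.2 and 73.1 in shLTBP1. All 3 shLTBP1 values were far above the controls, with a log2 fold change of 3.28 and a standard error of 0.28 (limma adjusted p = 7.37e-06). SERPINB3 and SERPINB4, near-identical squamous cell carcinoma antigens that can share reads, were listed at 0 in all shSCR libraries and stood at 3.06 to 3.88 and 0.954 to 1.26 in shLTBP1. SERPINB11, which overlaps SERPINB3 on the other strand, was likewise listed at 0 in shSCR and was at 0 to 5.29 in shLTBP1. SERPINB12 reached at most 2.03 in any library.

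The clade B genes of chromosome 18 stand next to each other over 543 kb, from SERPINB5 at 63476761 to SERPINB8 at 64019779 in hg38. Within this stretch SERPINB5 fell, while SERPINB13 and SERPINB8 rose, their starts 110.2 and 493 kb from that of SERPINB5. SERPINB7 and SERPINB2, between them, had log2 fold changes of 0.33 and 0.24 and did not pass (limma adjusted p = 0.116 and 0.185). Of the 5 tested genes, SERPINB5 was thus the one with a negative log2 fold change. The genes before the cluster, VPS4B, KDSR and BCL2, did not pass either, with log2 fold changes of 0.03, 0.05 and -0.49. The median log2 fold change of the 167 tested genes of chromosome 18 was -0.03. The 3 upstream sequences printed above belong to a gene that fell, one that rose and one that did not pass. The AP-1 match was in the gene that rose and in the one that did not pass. The SERPINB5 stretch ran only from -250 to -198 relative to its start, so the positions of those AP-1 matches were not searched there. The SERPINB13 stretch ran from -215 to -44 and excluded the position of the SERPINB5 CAGA box. Presence or absence of a match therefore cannot be compared between these genes.

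The clade B genes of chromosome 6, SERPINB1, SERPINB9 and SERPINB6, lie within 140 kb (2832332 to 2972165). All 3 rose, as did 26.3% of all tested genes. SERPINB9, an intracellular inhibitor of granzyme B, went from 273 ± 22.3 to 366 ± 22.5, a log2 fold change of 0.42 (standard error 0.10; limma adjusted p = 0.005). SERPINB1, an inhibitor of neutrophil elastase, went from 507 ± 21.5 to 588 ± 37.3 (limma adjusted p = 0.0444), and its call was lost under 9 of 16 alternatives, among them the omission of any library but shLTBP1 replicate 1. Over all 16 alternatives its limma adjusted p ran from 0.0294 to 0.127. Of 8 tested flanking genes, 5 rose, beside 26.3% of all tested genes. These were NQO2, BPHL, RIPK1, TUBB2A and WRNIP1, with log2 fold changes of 0.58, 0.31, 0.24, 0.22 and 0.16. FOXC1, farther out, fell (-0.44), and GMDS (-0.26) and MYLK4 (-0.22), the latter beside WRNIP1, did not pass. The median over the 642 tested genes of chromosome 6 was 0.02, and with the median of neighbouring genes subtracted SERPINB6 was still at 0.47 (limma adjusted p = 0.000146). SERPINB1 was then at 0.20 (limma adjusted p = 0.0515). The part of the local neighbourhood beyond this was not tested.

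**Figure D4:**
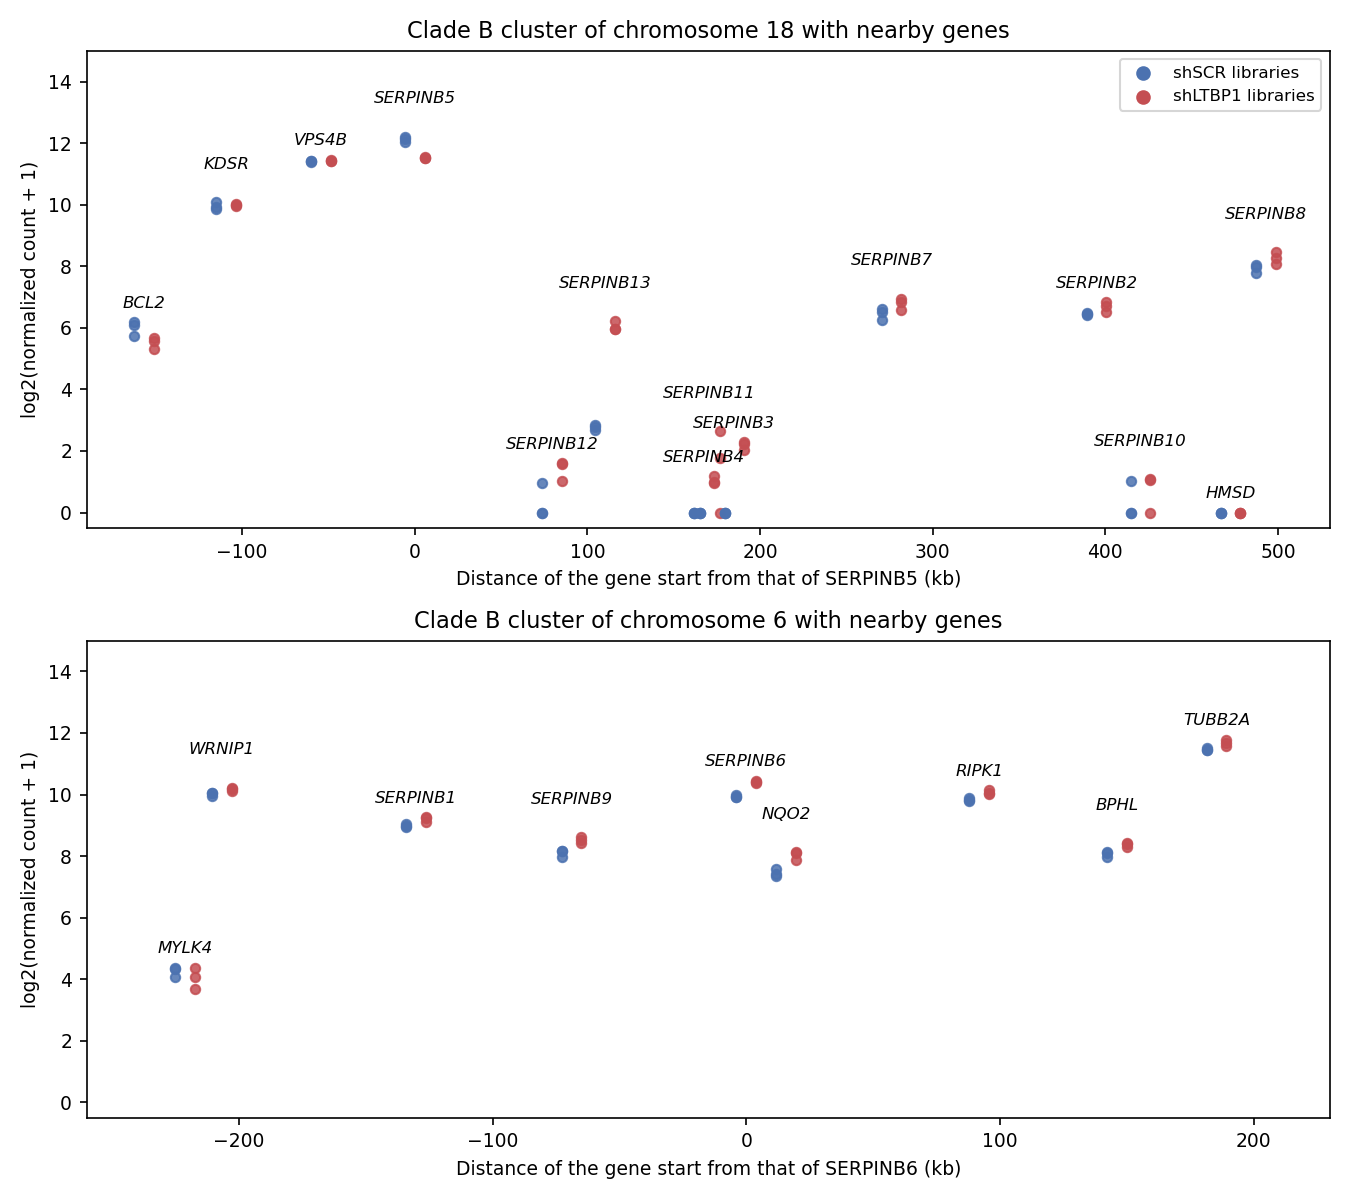
Log2(normalized count + 1) in each library (y axis) for the clade B serpins and nearby genes, placed by the distance of the gene start from that of SERPINB5 (upper panel) or SERPINB6 (lower panel) in kb (x axis); blue points are shSCR and red points shLTBP1 libraries, drawn slightly apart. In the upper panel SERPINB5 is lower and SERPINB13 higher in shLTBP1, and in the lower panel SERPINB1, SERPINB9 and SERPINB6 are all higher.

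Serpins of other clades were few in these cells. Of 22 listed, 21 were in the table and 6 were tested: 2 rose and 3 fell (83.3% called, beside 53.1% of all tested genes). SERPING1, the C1 inhibitor of complement and contact proteases, fell from 278 ± 18.6 to 93.1 ± 17.3 and SERPINF1, the antiangiogenic PEDF, from 48.6 ± 4.42 to 12.8 ± 6.96 (limma adjusted p = 1.86e-05 and 0.00308; SD, n = 3 each). SERPINH1, a collagen chaperone that is not a protease inhibitor, rose by 0.17 on the log2 scale. In addition, 9 of these genes were listed at 0 in all 6 libraries.

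Targets of the member serpins and receptors that clear their complexes were also counted. Of 11 listed target proteases, 7 were tested, and 2 rose, 1 fell (PLAT) and 4 did not pass (42.9% called, beside 53.1% of all tested genes). FURIN, the proprotein convertase that SERPINB8 inhibits, rose by 0.24 on the log2 scale. PRSS8, an epithelial protease, rose by 0.17; omitting shSCR 2, shSCR 3, shLTBP1 1 or shLTBP1 2 ended the PRSS8 call, which left 1 of the 7 rising. ST14, or matriptase, did not pass (limma adjusted p = 0.0746), though it did with upper quartile scaling or quantile normalization. CTSG, the cathepsin that SERPINB6 inhibits, was listed at 0 in 5 libraries and at 1.36 in shLTBP1 replicate 3. Of 11 receptors and partners in endocytosis of protease and serpin complexes, 9 were tested, of which 1 rose and 5 fell (66.7% called, beside 53.1% of all tested genes). The median difference was -0.23 on the log2 scale. LRP1, the main clearance receptor for complexes of activators with clade E serpins, had means of 6091 ± 314 and 4528 ± 118 (SD, n = 3 each) and fell (limma adjusted p = 7.44e-05). MRC2, a collagen receptor that associates with PLAUR, fell from 511 ± 30.3 to 81.4 ± 7.11, a log2 fold change of -2.64 that exceeded in size that of PLAT. SORL1 and IGF2R fell with log2 fold changes of -1.61 and -0.65, while LRP8 rose by 0.85 on the log2 scale. SDC1, on chromosome 2, fell by 0.23 but was higher, at 0.37, with the median of its neighbours subtracted. The number that rose was then 3, and it was 2 without shSCR replicate 3 or without shLTBP1 replicate 3.

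Genes with the most similar pattern were sought among 10689 protein genes with a mean of at least 100, by the root mean square difference of centred log2 values over the 6 libraries. For PLAT these were DCBLD2, a membrane receptor (difference 0.06; 5504 to 1235), and GPX2, a gastrointestinal glutathione peroxidase (difference 0.07; 2013 to 428). For SERPINE2, SMAD7 was at a difference of 0.05, and for SERPINB5 they were GPN1 and FARSB, both on chromosome 2. For SERPINB6 they were AKR1A1 and BAIAP2, for SERPINB8 DXO and CEP131, for SERPINB2 ERI3 and NAGLU, and for PLAUR WDR45B and SLC25A44. With 6 libraries in 2 groups, such likeness mostly reflects the size of the group difference and is a description.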

How the data were processed

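Total RNA of MKN28 cells was profiled by RNA-seq in 3 shSCR and 3 shLTBP1 libraries, grouped and numbered by their titles. The tools named in the submitters' processing notes are DESeq2, RSEM (1.3.1), STAR (2.7.3a) and FastQC (0.10.1), and the build is hg38; for annotation, strand setting and filters the sources used here state nothing. The deposited values are a signal: estimated counts that the authors scaled with DESeq2. Only 34.4% to 36.8% of low values came out as whole reads within 0.1, so no count test was run and sequenced depth is unknown. Library sums were 30479879 to 30941103.

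Genes with a mean of at least 10 were compared on log2(value + 1) with limma (3.58.1; R 4.3.3), with group as the only term, a variance trend and Benjamini-Hochberg adjustment over 12789 genes at 0.05, two-sided; the model was tested on simulated data. The pseudocount understates the change of low genes. Neighbour subtraction took from each library the median centred log2 value of 25 tested genes on each side. Positions and principal transcript lengths came from GENCODE release 29 on GRCh38 (19872 of 19960 identifiers matched). Per-kb levels use 1 transcript per gene. Upstream sequences came from RefSeq on GRCh38.p14; 7 of the 8 members matched by symbol, and PLAT did not.

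The members and gene lists were chosen with earlier results of these data known. Named genes follow a rule: the members, LTBP1, up to 3 rises and 3 falls per list, and the 2 nearest patterns per member. ENO1, ANXA2, SERPINB1, SERPINB7, SERPINI1, PLGRKT, LRP1, SDC1, ST14, HBA1, HBB and the neighbours of the clusters were chosen after their values were seen. Some genes that the rule names are not reported here. The alternatives were pseudocounts of 0.5 and 5, upper quartile scaling, no filter, a minimum mean of 50, quantile normalization, no trend, robust moderation, a replicate block, neighbour subtraction and leaving out each library.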

Additional observations from a re-analysis of the deposited data

How the results depend on the processing

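PLAT, SERPINE2, SERPINB5, SERPINB6 and LTBP1 kept their direction and their call under all 16 alternatives, and SERPINB2 stayed without a call. SERPINB8 kept its direction but not its call with no filter (log2 fold change 0.32, limma adjusted p = 0.0725), quantile normalization (0.30, 0.0651) or no variance trend (0.32, 0.0661), and its log2 fold change ran from 0.23 to 0.41 when single libraries were left out. PLAU passed once the filter was dropped (-1.26), and PLAUR, never called, turned to -0.090 with neighbours subtracted. Also without a call, PLGRKT turned to -0.0028 with quantile normalization and ran from -0.0064 (without shSCR replicate 3) to 0.093 when single libraries were left out. HBA1 ran from -3.24 to 0.52, the latter without shSCR replicate 3, where its high value lies. SERPINI1 passed without the variance trend (limma adjusted p = 0.0476). SDC1 turned to 0.37 with neighbours subtracted. Of the clade B serpins, only 3 rose with quantile normalization and 3 to 5 when single libraries were left out. Of the endocytic receptors, 2 rose with the replicate block, 3 with neighbours subtracted and 1 to 2 when single libraries were left out. Of the target proteases, 1 rose without the variance trend, 2 fell with no filter and 2 with neighbours subtracted; 1 to 2 rose and 1 to 2 fell when single libraries were left out. The number of substrates that rose was 1 with a mean of at least 50. With neighbours subtracted 0 epithelial markers rose. With no filter 1 endothelial marker fell and 2 fibroblast markers rose, and with a mean of at least 50, 0 fibroblast markers rose. The causes were not tested, except that the filters change which genes are tested.

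The same replicate numbers did not pair the libraries: deviations from the group means correlated at -0.009, 0.058 and -0.001 for numbers 1, 2 and 3, and not every library correlated best with its own number. With the replicate block 3347 genes rose and 3408 fell, against 3362 and 3426 without it; among members 3 rose and 2 fell. SERPINB1 lost its call with it (limma adjusted p = 0.0553). Depth is unknown, which limits PLAU and the other genes below the filter most.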

Other observations

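Other genes of proteolysis at the cell surface moved apart. Of 16 listed membrane serine proteases, Kunitz inhibitors and coagulation receptors, 12 were tested, and 5 rose and 2 fell (median log2 fold change 0.14, beside 0.00 over all tested genes, of which 53.1% were called). F3, tissue factor, which starts coagulation, fell from 743 ± 35.4 to 257 ± 24.0, and F2R, the thrombin receptor PAR1, from 319 ± 22.5 to 134 ± 4.43 (limma adjusted p = 8.03e-07 and 6.68e-06; SD, n = 3 each). F2RL1, the related receptor PAR2, rose by 0.24 on the log2 scale, the membrane protease TMPRSS4 by 0.32 and the low-expressed hepsin gene HPN by 0.90. Subtracting the neighbour median ended the HPN call (limma adjusted p = 0.0598). PAR1 and PAR2 thus had log2 fold changes of opposite sign, -1.25 and 0.24; their difference was not tested.

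Among 14 listed substrates of plasmin or urokinase, growth factors and matrix proteins included, 10 were tested, of which 2 rose and 5 fell. The share called was 70%, beside 53.1% of all tested genes. The median was -0.58 on the log2 scale, beside 0.00 over all tested genes. FN1, fibronectin, fell from 632 ± 13.8 to 194 ± 39.7, a log2 fold change of -1.72 that became -1.12 once the neighbour median on chromosome 2 was taken off. MMP14, the membrane collagenase, fell from 4504 ± 168 to 1429 ± 279.9. MST1, the precursor of macrophage-stimulating protein, rose from a low 16.6 ± 9.91 to 45.4 ± 5.99 (limma adjusted p = 0.00734; SD, n = 3 each), and the growth factor PDGFC rose by 0.33 on the log2 scale.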
